A study of Mus musculus with 14 samples.

Results

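The circadian clock genes were examined in hippocampal RNA-seq counts of mice kept under intermittent hypoxia (IH group, n = 5), sustained hypoxia (SH group, n = 5) or normal air (control group, n = 4). The members were chosen by gene name: the Per and Cry genes, Bmal1 (also called Arntl), Clock, Npas2, Nr1d1, Nr1d2, Dbp, Tef, Hlf, Ciart, Bhlhe40, Bhlhe41, Rora and Rorb. Of these 18 genes, 13 were among the 7756 genes of the table. Bmal1, Cry2, Tef, Bhlhe40 and Bhlhe41 were not analysed here.

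All animals were wild-type male C57BL/6J mice, aged 8 weeks, and all groups were maintained for 28 days. The IH group breathed oxygen that cycled between 10% and 21% every 2 min, and the SH group breathed 10% oxygen, in each case for 8 h a day from clock hour 12 to clock hour 20. The control group breathed 21% oxygen throughout. Lights came on at clock hour 8, so the exposure fell in the light phase. Behavioural tests preceded tissue collection in the main experiment. The methods place the control mice in a preliminary experiment, so a difference between either hypoxia group and the control group cannot be told apart from a difference between experiments. The clock time of tissue collection is not given in the sources used here, for any group, and its part in the results was not tested.

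The mammalian clock is a feedback loop of transcription. CLOCK or its relative NPAS2 pairs with BMAL1 and activates genes that carry E-boxes, among them the Per, Cry, Nr1d and Ciart genes and Dbp, whose products then repress the pair or pass the rhythm on. REV-ERB proteins (Nr1d1, Nr1d2) repress and ROR proteins activate Bmal1, Clock and Npas2. In most mouse tissues the transcripts of many E-box genes crest around dusk, while Bmal1, Npas2 and, more weakly, Clock crest around dawn. DBP, TEF and HLF are PAR bZIP factors that bind D-boxes, which occur in the Per genes. In the hippocampus the clock is known for daily changes in excitability and in memory formation. A shift in the time of sampling moves the dusk and dawn genes in opposite directions at most times of day, which is the pattern looked for here.

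The promoters show which of these elements the members carry, and 5 are printed because they hold these elements and their genes took different signs against the control group. Each is the 250 bases before the transcription start in RefSeq, on the gene's strand, in build GRCm38.p6, while gene coordinates elsewhere are in GRCm39. Capitals mark an E-box (CACGTG), an E′-box (CACGTT, or AACGTG on the other strand) or a D-box (TTANGTAA on either strand). They are Per3 at chr4:151044666-151044915 (minus strand), Cry1 at chr10:85185055-85185304 (minus), Ciart at chr3:95882229-95882478 (minus), Per1 at chr11:69098699-69098948 (plus) and Nr1d1 at chr11:98775378-98775627 (minus).
Per3: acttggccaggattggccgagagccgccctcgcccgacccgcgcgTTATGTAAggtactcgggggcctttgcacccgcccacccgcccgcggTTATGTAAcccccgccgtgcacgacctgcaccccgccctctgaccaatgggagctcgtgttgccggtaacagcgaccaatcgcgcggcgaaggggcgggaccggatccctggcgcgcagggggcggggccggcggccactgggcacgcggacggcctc
Cry1: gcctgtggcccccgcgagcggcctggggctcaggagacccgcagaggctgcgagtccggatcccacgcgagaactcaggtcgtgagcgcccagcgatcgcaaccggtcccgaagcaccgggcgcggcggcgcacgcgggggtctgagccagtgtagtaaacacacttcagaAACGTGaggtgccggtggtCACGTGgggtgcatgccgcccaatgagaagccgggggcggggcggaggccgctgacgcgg
Ciart: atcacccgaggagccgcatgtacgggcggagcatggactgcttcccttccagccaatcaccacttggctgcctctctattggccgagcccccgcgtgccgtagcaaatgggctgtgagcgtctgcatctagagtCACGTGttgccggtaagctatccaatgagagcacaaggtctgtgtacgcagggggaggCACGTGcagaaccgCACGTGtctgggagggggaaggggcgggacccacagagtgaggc
Per1: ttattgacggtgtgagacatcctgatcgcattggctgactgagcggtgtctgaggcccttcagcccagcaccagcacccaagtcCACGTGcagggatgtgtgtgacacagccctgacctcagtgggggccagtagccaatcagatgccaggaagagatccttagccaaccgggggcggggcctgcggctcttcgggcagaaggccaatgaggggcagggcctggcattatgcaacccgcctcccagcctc
Nr1d1: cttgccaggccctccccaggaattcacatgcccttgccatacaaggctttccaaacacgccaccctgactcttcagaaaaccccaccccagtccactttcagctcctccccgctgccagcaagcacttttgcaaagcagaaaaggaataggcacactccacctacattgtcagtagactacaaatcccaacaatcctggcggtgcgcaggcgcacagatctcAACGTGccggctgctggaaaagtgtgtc

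Per3 had 2 D-boxes, starting 205 and 158 bases before the start, and no E-box in this window. Ciart had 3 E-boxes, Cry1 an E-box and an E′-box, Per1 an E-box and Nr1d1 an E′-box. Promoters of 12 of the 13 members were in the table used (16 promoters in all). Per2 had none there. An E-box was found in 3 of these 12 genes, against 6.86% of 27025 genes with a promoter and 9.15% of those in the count table. An E′-box was found in 3 of 12, against 4.5% of all genes, and a D-box in 2 of 12 (Per3 and Rorb), against 2.44%. The E-box of Cry1 and that of Per1 sat before genes whose fold changes had opposite signs in both hypoxia groups. A cAMP response element (TGACGTCA), the site bound by CREB, was found in Hlf alone, against 1.77% of all genes. The core of the ROR element was found in none of the 12 as TAGGTCA (2.55% of all genes) or as TGGGTCA (3.73%). These matches describe letters only.

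Library totals ranged from 8352355 to 11777101 counts in the control group, 7568082 to 10578076 in the IH group and 7203659 to 10480839 in the SH group. Markers of the hippocampal fields were present, 7 of 8 for the dentate gyrus and 8 of 11 for CA1 and CA3. Markers of the choroid plexus, a tissue that lies against the hippocampus, were also present (14 of 14), with a summed normalized count of 4057 to 123700 in the control libraries, 5120 to 74910 in the IH libraries and 4711 to 91780 in the SH libraries. Control replicate 4 had the highest sum. In bulk tissue, fewer cells of a type and less RNA per cell cannot be told apart.

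Values are normalized counts (counts scaled by the TMM method to a common library size) unless a scale is named. Per kilobase of transcript, the most abundant members were Nr1d1, Dbp and Hlf, and their order differed between groups. In the control group Dbp stood at 743 ± 34.5 normalized counts per kb (SD, n = 4) and Nr1d1 at 714 ± 66.4, above Hlf at 460 ± 47.9. In the IH group (n = 5) Hlf was at 641 ± 63.3, Dbp at 625 ± 93.3 and Nr1d1 at 561 ± 77.5, and in the SH group (n = 5) Nr1d1 was at 692 ± 56.2, Hlf at 598 ± 81.4 and Dbp at 591 ± 66.2. Per1 lay above Per3 in the control group (311 ± 58.5 and 213 ± 12.6) and below it in the IH group (258 ± 16.8 and 324 ± 21.3). The least abundant was Rorb (47.1 ± 4.70, SD over all 14 libraries).

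**Figure D1:**
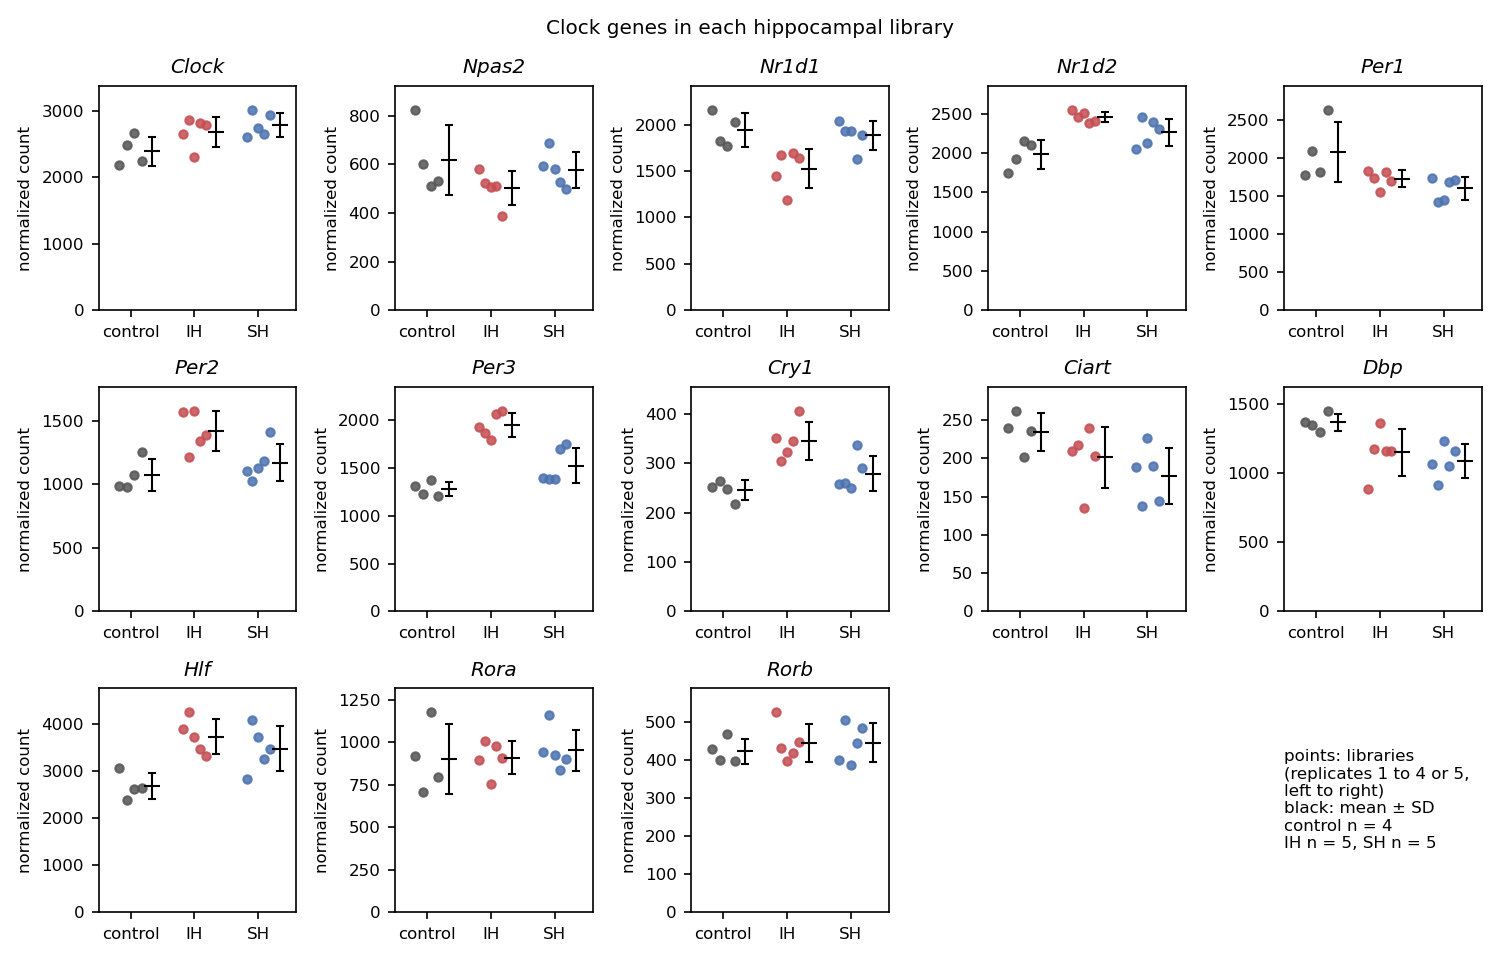
Normalized counts (vertical axes, starting at 0) of the 13 clock genes in each control, IH and SH library, with points for libraries and black marks for the mean ± SD (control n = 4, IH n = 5, SH n = 5). The IH points of Per3, Cry1, Nr1d2 and Hlf lie above every control point, and those of Nr1d1 lie below.

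The first question was how the clock genes of the IH group stood against the control group. Per3, Per2 and Cry1, which encode repressors of the core loop, rose together with Nr1d2 and Hlf, and Nr1d1 fell. In edgeR's quasi-likelihood test, 6 of 13 members passed at an adjusted p under 0.05, against 10.9% of the 7338 genes tested. Of these, 5 were higher (background 6.08%) and 1 was lower (background 4.85%). Members entered the table only after the authors selected genes whose signal differed from the control group, so these counts describe the members present. At the limits of the study, a log2 fold change beyond 0.58 with an unadjusted p under 0.05, 1 member passed (Per3) against 2.68% of genes.

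Per3, which encodes a period protein, changed most surely. Its normalized count was 1311, 1226, 1373 and 1211 in control replicates 1 to 4 and 1933, 1866, 1796, 2065 and 2095 in IH replicates 1 to 5. Every IH library was above every control library, as in 5 of 13 members in either direction against 15.1% of genes tested. The mean was 1280 ± 75.9 in the control group and 1951 ± 128 in the IH group (SD), which is 0.61 on the log2 scale (SE 0.084, adjusted p = 0.000637, edgeR). The call held in 25 of 25 alternative settings, with log2 fold changes of 0.56 to 0.64. The gene lies at chr4:151081373-151129140 on the minus strand.

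Cry1, whose product is the strongest repressor of CLOCK and BMAL1, measured 251, 264, 248 and 217 in the control libraries and 350, 304, 323, 345 and 405 in the IH libraries. The groups did not overlap. Its log2 fold change was 0.50 (SE 0.11, adjusted p = 0.0128, edgeR), and the call was missed in 1 of 25 settings, where trends of the counts on transcript GC content and length were removed in every library together with a replicate block (adjusted p = 0.0596). Per2, another period gene, measured 989, 977, 1071 and 1256 in the control libraries and 1570, 1214, 1576, 1342 and 1390 in the IH libraries. Control replicate 4 lay above IH replicate 2, so the groups overlapped at that point. The log2 fold change of Per2 was 0.40 (SE 0.11, adjusted p = 0.0250, edgeR). Leaving out control replicate 1, control replicate 2 or IH replicate 1 lost the call (adjusted p = 0.0811, 0.0826 and 0.0593), as did removal of the trends together with the block (0.0502).

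The REV-ERB genes moved in opposite directions. Nr1d1 measured 2156, 1824, 1765 and 2026 in the control libraries and 1447, 1667, 1190, 1689 and 1638 in the IH libraries. All IH values were below all control values, and the log2 fold change was -0.35 (SE 0.10, adjusted p = 0.0374, edgeR). Nr1d2, which encodes the related REV-ERB beta, measured 1748, 1925, 2158 and 2107 in the control libraries and 2548, 2457, 2508, 2382 and 2405 in the IH libraries. All IH values were above all control values, and the log2 fold change was 0.31 (SE 0.070, adjusted p = 0.0121, edgeR). Neither call held with GC content and length trends removed (Nr1d1 -0.25, adjusted p = 0.132, and Nr1d2 0.13, 0.209, edgeR). The Nr1d1 call was also lost without control replicate 1 (adjusted p = 0.116), 2 (0.0627) or 4 (0.0843) or IH replicate 1 (0.0759), and in a fit of the compared groups alone (0.0614). The 3' ends of Nr1d1 and of Thra, a thyroid hormone receptor gene in the same table, overlap on opposite strands, and whether the counting used strand is not given in the sources used here.

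Hlf encodes a PAR bZIP activator. It measured 3061, 2392, 2615 and 2651 in the control libraries and 3891, 4260, 3726, 3470 and 3319 in the IH libraries. The groups did not overlap, and the log2 fold change was 0.48 (SE 0.10, adjusted p = 0.00975, edgeR), a call lost with the trends removed (0.35, adjusted p = 0.0607). Dbp, the other PAR bZIP gene in the table, went the other way without passing, at a log2 difference of -0.25 (SE 0.11, adjusted p = 0.131, edgeR). Clock, Dbp, Hlf and Per3 each overlap a protein-coding gene on the opposite strand (Tmem165, Sphk2, Mmd and Uts2, none of them in the table).

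The remaining members did not pass in IH vs. control. The log2 fold changes were -0.27 for Per1 (adjusted p = 0.104), -0.30 for Npas2 (0.172) and 0.16 for Clock (0.163) in edgeR. Per1 passed in 1 of 25 settings, with the choroid plexus marker level as a covariate (log2 fold change -0.31, adjusted p = 0.0310). Ciart, a repressor also called Chrono, gave -0.22 (adjusted p = 0.402, edgeR), with the lowest IH value, 135, in replicate 3 and the others at 204 to 239. Rora and Rorb gave 0.014 and 0.069, with adjusted p-values of 0.953 and 0.680 in edgeR.

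**Figure D2:**
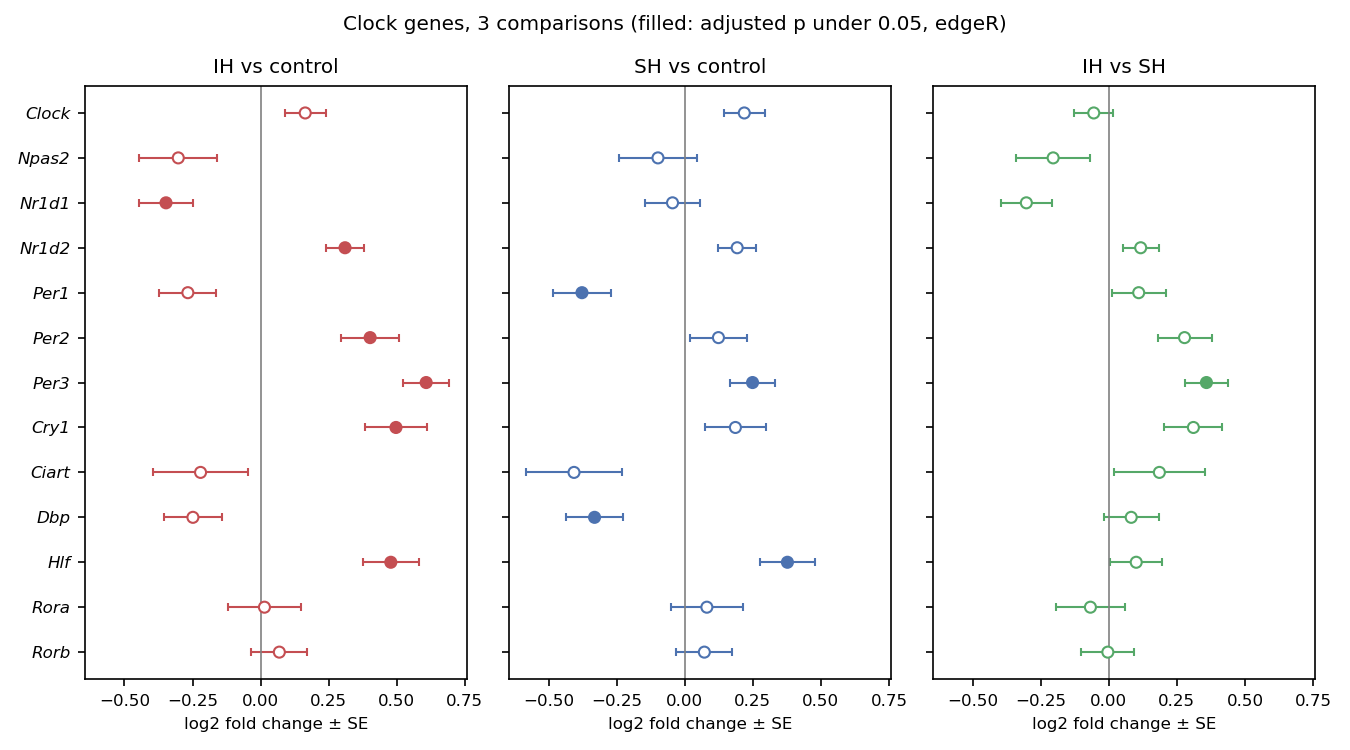
Log2 fold change ± SE of each clock gene (horizontal axes) in IH vs. control, SH vs. control and IH vs. SH, with filled points for an adjusted p under 0.05 (edgeR). Filled points fall on both sides of 0 in both comparisons with the control group, and Per3 is the only filled point between IH and SH.

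The SH group was then set against the same control libraries. Hlf and Per3 rose, and Per1 and Dbp fell. These 4 of 13 members compare with 20.6% of genes tested, and with 10.2% called higher and 10.5% called lower. None of the 13 passed the limits of the study, against 2.71% of genes. Since both comparisons use the same 4 control libraries, their values are given side by side without a measure of likeness.

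Hlf measured 2847, 4101, 3730, 3257 and 3471 in the SH libraries. Replicate 1 lay among the control values, and the log2 fold change was 0.38 (SE 0.10, adjusted p = 0.0181, edgeR), against 0.48 in the IH group. The call was lost without control replicate 2 (adjusted p = 0.0635), and removing the trends also lost it (0.21, 0.244). Per3 measured 1399, 1383, 1383, 1698 and 1747, all above the control libraries, and the log2 fold change was 0.25 (SE 0.084, adjusted p = 0.0469, edgeR). Its 5 libraries fell into 3 values near the top of the control range and 2 well above it. Non-overlap in this comparison was seen for 3 of 13 members, against 19.4% of genes tested. The Per3 call held in 11 of 25 settings. It was lost with the trends removed (adjusted p = 0.135), and adjusted p was 0.0841, 0.120, 0.113, 0.0573, 0.0566, 0.109 and 0.112 without control replicates 1, 2 and 4, IH replicates 1 and 2, and SH replicates 4 and 5 in turn.

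Per1, a period gene that also responds to CREB signalling and glucocorticoids, measured 1781, 2092, 1821 and 2630 in the control libraries and 1740, 1424, 1448, 1687 and 1707 in the SH libraries. All SH values were below all control values, and the log2 fold change was -0.38 (SE 0.10, adjusted p = 0.0211, edgeR). The highest value was in control replicate 4, the library with the most choroid plexus signal, and without it the log2 fold change was -0.24 and the adjusted p 0.0705. Without SH replicate 2 the adjusted p was 0.0502, and with the trends removed 0.0693. With the choroid plexus marker level as a covariate, the log2 fold change was -0.43 and the adjusted p 0.00509.

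Dbp measured 1369, 1348, 1294 and 1447 in the control libraries and 1067, 912, 1233, 1051 and 1161 in the SH libraries. All SH values were below all control values, and the log2 fold change was -0.33 (SE 0.11, adjusted p = 0.0385, edgeR). The call held in 15 of 25 settings. Removal of the GC content and length trends took the value to -0.039 (adjusted p = 0.859, edgeR), and -0.067 (0.681) with a replicate block added. The call was also lost without control replicates 1, 2 or 4 (adjusted p = 0.0836, 0.0752 and 0.0917), IH replicate 4 (0.0537) or SH replicates 1, 2 or 4 (0.0550, 0.0890 and 0.0741), and with the choroid plexus marker level as a covariate (0.0561). In the IH libraries Dbp was 884, 1174, 1364, 1159 and 1162, with replicate 3 inside the control range.

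Clock, the histone acetyltransferase subunit of the activator pair, measured 2188, 2483, 2660 and 2251 in the control libraries and 2601, 3012, 2745, 2653 and 2931 in the SH libraries. Its log2 fold change of 0.22 narrowly missed the threshold (adjusted p = 0.0528, edgeR) and passed in 7 of 25 settings, among them DESeq2 (0.0354). Nr1d2 gave 0.19 (adjusted p = 0.0615, edgeR) and passed in 4 of 25. Ciart gave -0.41 (0.108), Cry1 0.19 (0.251), Per2 0.12 (0.422), Npas2 -0.098 (0.660) and Nr1d1 -0.045 (0.779) in the same test. Rora and Rorb gave log2 fold changes of 0.081 and 0.072 and did not pass.

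The IH and SH mice belonged to the same (main) experiment, so the means compared do not involve the preliminary one. The control libraries still entered the estimate of the spread. The methods describe separate gas delivery systems for these groups, with the SH cages inside an acrylic box. A difference between IH and SH therefore cannot be told apart from a difference between apparatus. Per3 was higher in the IH group, with all IH libraries (1796 to 2095) above all SH libraries (1383 to 1747). The log2 fold change was 0.36 (SE 0.079, adjusted p = 0.0272, edgeR). It was the only member called, 1 of 13 against 2.37% of genes tested (1.47% higher and 0.899% lower), and the only member whose groups did not overlap, against 4.46%. No member passed the limits of the study, against 0.981% of genes. The call was lost in a fit of these 2 groups alone (adjusted p = 0.0723), without IH replicates 1, 4 or 5 (0.0516, 0.0731 and 0.0544) and without SH replicates 1, 2 or 3 (0.0514, 0.0743 and 0.0727), while the log2 fold change stayed between 0.33 and 0.36 in these fits.

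The next members by size in IH vs. SH were Cry1 (log2 fold change 0.31, SE 0.11, adjusted p = 0.151), Nr1d1 (-0.30, SE 0.095, adjusted p = 0.118) and Per2 (0.28, SE 0.10, adjusted p = 0.170) in edgeR. Cry1 in the SH libraries was 257, 259, 250, 337 and 291, so replicate 4 lay inside the IH range. Nr1d1 in the SH libraries was 2040, 1933, 1927, 1629 and 1884, and replicate 4 again lay inside the IH range. Per2 in the SH libraries was 1102, 1028, 1126, 1181 and 1409, of which replicate 5 lay inside the IH range. Each of these 3 genes thus differed by more than the SD of either group but did not pass the test over all genes.

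The members were then read by the time of day at which their transcripts crest in most mouse tissues. The dusk class held Per1, Per2, Per3, Ciart, Nr1d1, Nr1d2, Dbp and Hlf, which do not all crest at the same hour. The dawn class held Clock and Npas2. Bmal1, the gene that oscillates most strongly in the dawn class, was not analysed here. Cry1, Rora and Rorb were placed in neither class. In IH vs. control, 4 of 8 dusk genes had positive and 4 negative log2 fold changes, of which 4 and 1 passed, with a median of 0.045 against -0.015 over all genes tested. The dusk genes of SH vs. control were again 4 and 4, of which 2 and 2 passed, with a median of 0.040 against 0.0035. In each comparison with the control group, 1 of 2 dawn genes was positive (Clock) and 1 negative (Npas2), and neither passed. The median of the dawn genes was -0.069 in IH vs. control and 0.060 in SH vs. control. Over 25 alternative settings the number of dusk genes with a positive value stayed at 4 in IH vs. control and was 4 or 5 in SH vs. control, while that of dawn genes was 0 or 1 and 0 to 2. With GC content and length trends removed, both dawn genes were negative in IH vs. control (Clock -0.018, Npas2 -0.29).

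Between IH and SH, 7 of 8 dusk genes had positive log2 fold changes (median 0.11) and both dawn genes negative ones (Clock -0.055, Npas2 -0.20), against a median of -0.0039 over all genes. This is a pattern of opposite sign between the classes. Of these 10 genes only Per3 passed the test, and Nr1d1 ran against its class. Over the alternative settings 6 or 7 dusk genes were positive and 0 dawn genes were. The dawn class rests on 2 genes, the dusk genes crest at different hours, and no test was made of the classes. These counts and medians therefore cannot show whether the time of sampling differed between groups, which was not tested.

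Transcript GC content moved with the fold changes of several members. Dbp had the highest GC content (61.6%) and the shortest transcript (1837 bases), followed by Nr1d1 (56.8%) and Per1 (56.1%), and all had negative log2 fold changes against the control group in both hypoxia groups. Rora, Clock, Rorb, Nr1d2 and Hlf had the lowest GC content (41.4% to 44.9%), and all were positive. With loess trends on GC content and length removed in every library, Per3, Cry1 and Per2 still passed in IH vs. control, with log2 fold changes of 0.60, 0.51 and 0.43 (adjusted p = 0.00167, 0.0194 and 0.0372, edgeR). These 3 of 13 compare with 4.74% of genes called after this step. Hlf, Nr1d2 and Nr1d1 no longer passed. In SH vs. control 0 of 13 members passed in edgeR after the same step, against 5.45% of genes, with 2 at an unadjusted p under 0.05. DESeq2 without that step called 6 of 13 members when either hypoxia group was set against the control group, beside 15.9% (IH) and 24.7% (SH) of the genes to which it gave an adjusted p. Between the hypoxia groups it called 1 of 13, beside 4.95%. With the trends removed, edgeR gave Per3 0.23 and Per1 -0.31 in SH vs. control. In IH vs. SH the Per3 value still passed, 1 of 13 against 2.18% of genes. Per2, Per3 and Cry1 had GC contents of 51.9% to 54.4%, near the median of 50.9% over the table. Ciart (52.5%) and Npas2 (52.6%) lay in the same range, with negative values against the control group in both hypoxia groups.

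**Figure D3:**
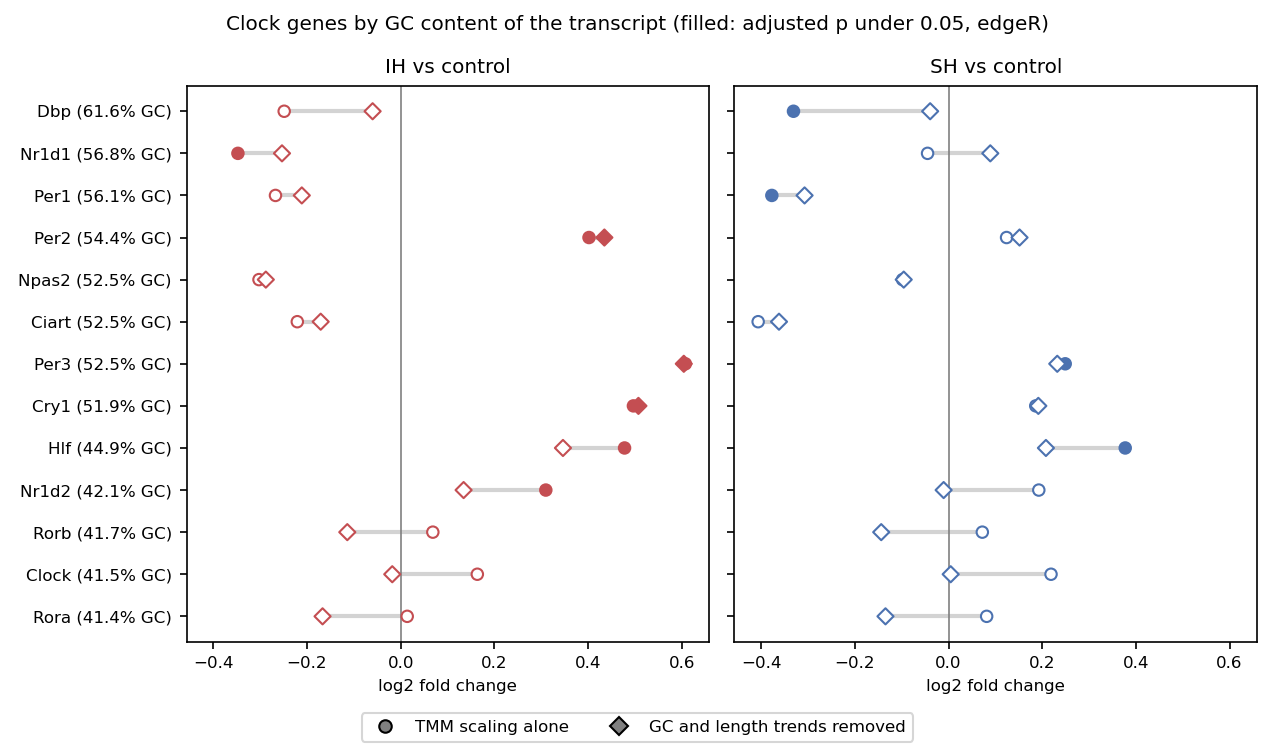
Log2 fold changes (horizontal axes) of the 13 clock genes ordered by GC content, before (circles) and after (diamonds) removal of GC content and length trends, with filled symbols for an adjusted p under 0.05 (edgeR). In the comparisons with the control group, genes at the top and bottom of the order move towards or across 0, while Per3, Cry1 and Per2 stay at 0.60, 0.51 and 0.43 in IH vs. control.

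To see whether clock genes varied together within a group, the deviation of each library from its group mean was taken on the log2 scale. The deviations of each gene were correlated with those of Dbp. None of the 12 relations passed after adjustment (14 libraries, permutation within groups), and an unadjusted p under 0.05 was reached by Rorb alone. Rorb gave Pearson r = -0.778 (permutation p = 0.00564, adjusted p = 0.0677) and Spearman rho = -0.666 (permutation p = 0.0240, adjusted p = 0.288). Without IH replicate 1 and SH replicate 2, the libraries farthest from the median of Dbp, r was -0.508, and with GC content and length trends removed it was -0.451. Clock, which crests opposite to Dbp, gave r = -0.384 and rho = -0.332 (permutation p = 0.217 and 0.261, adjusted p = 0.522 and 0.616), and r turned to 0.269 with the trends removed. Per1, Per2 and Per3 gave r of -0.0255, 0.186 and -0.0570, and Nr1d1 and Hlf gave -0.103 and -0.150.

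The 5 genes whose deviations were most like those of Dbp, among 7325 genes outside the clock genes, were Ifitm10 (r = 0.877), Yrdc (0.874), Rfxap (0.864), Ehd1 (0.825) and Tlcd3b (0.817), over 14 libraries. Their transcripts had GC contents of 51.7% to 61.2%.

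Regulators and outputs of the clock were read from lists of general knowledge. Of 46 regulators (kinases, phosphatases, ubiquitin ligases and signalling factors), 17 were tested. In IH vs. control, 2 were higher and 2 lower, against 6.08% and 4.85% of all genes tested. Creb1, the transcription factor behind light and cAMP induction of Per genes, was higher by 0.35 on the log2 scale (adjusted p = 0.00857, edgeR) and Prkaa1, the AMP-activated kinase subunit that marks cryptochromes for decay, 0.31 (0.0250). Gsk3a, a kinase, and Id2, an inhibitor of helix-loop-helix factors, fell by 0.20 and 0.21 on the log2 scale (adjusted p = 0.0377 and 0.0480). The calls of Gsk3a and Id2 held in 11 and 8 of 25 settings and were lost in turn without 8 and 11 of the 14 libraries, each control library among them (up to 0.0930 and 0.102). That of Prkaa1 was lost without control replicate 1 (0.0516), control replicate 4 (0.0747) or IH replicate 5 (0.0585).

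In SH vs. control, 5 of the 17 regulators were higher and 4 lower, against 10.2% and 10.5% of all genes tested. Csnk1d, the casein kinase that phosphorylates PER proteins, rose by 0.29 in SH vs. control (adjusted p = 0.00201, edgeR). In IH vs. SH its log2 fold change was -0.23 (adjusted p = 0.0244, edgeR). It was the only regulator called in IH vs. SH, 1 of 17 against 2.37% of all genes tested (0.899% lower). Without IH replicate 2 or SH replicate 3 the IH vs. SH call of Csnk1d was lost (adjusted p = 0.0684 and 0.0632), as in a fit of these groups alone (0.0804).

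The other regulators called in SH vs. control were Creb1 (log2 fold change 0.39), Prkaa1 (0.31), Cipc (0.21) and Btrc (0.18, adjusted p = 0.0499, edgeR, passing in 6 of 25 settings) among those higher. Lower were Id2 (-0.35), Csnk2b (-0.28), Gsk3a (-0.23) and Sik1 (-0.85, adjusted p = 0.0474). Cipc is a CLOCK-interacting repressor, Btrc a ubiquitin ligase subunit that acts on PER proteins, and Sik1 a kinase that damps the light response of the clock. The Sik1 call was lost in turn without 9 of the 14 libraries. Without control replicate 4 its value was -0.57 and its adjusted p 0.170. With GC content and length trends removed, the values of Creb1 in IH vs. control and SH vs. control moved to 0.14 and 0.15 and those of Prkaa1 to 0.12 and 0.10, and none passed. Gsk3a moved to -0.072 in IH vs. control (adjusted p = 0.511, edgeR) and to -0.039 in SH vs. control (0.746). The calls of Csnk2b (-0.19, adjusted p = 0.108), Cipc (0.15, 0.0922), Btrc (0.20, 0.0821) and Sik1 (-0.87, 0.0785) in SH vs. control were lost as well. Of the regulators called in IH vs. control, 1 of 4 still passed (Id2, -0.27). Of those called in SH vs. control, 2 of 9 did (Csnk1d, 0.47, and Id2, -0.44). Csnk1d passed newly in IH vs. control (0.18, adjusted p = 0.0351, edgeR). After this step 2 of the 17 regulators were called in each of these comparisons, against 4.74% (IH) and 5.45% (SH) of all genes tested.

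Of 36 clock output genes, 16 were tested. In IH vs. control 2 were higher and 0 lower, in SH vs. control again 2 and 0, against 10.9% and 20.6% of all genes called in either direction, and 1 was higher in IH vs. SH, where 1.47% of all genes were. Wee1, a cell cycle kinase under E-box control, was higher in both hypoxia groups, with log2 fold changes of 0.45 in IH vs. control (adjusted p = 0.0138, edgeR) and 0.44 in SH vs. control (0.00952). The IH call was lost without control replicate 1 (0.0516). Tsc22d3, a glucocorticoid-induced leucine zipper with a daily rhythm, measured 907, 1013, 1058 and 1041 in the control libraries, 1447, 1291, 1852, 1454 and 1396 in the IH libraries and 1052, 1387, 937, 1063 and 1051 in the SH libraries. All IH libraries were above all control libraries, and SH replicate 2 alone reached the IH range. On the log2 scale the difference was 0.57 against the control group (adjusted p = 0.00733, edgeR) and 0.44 against the SH group (0.0417). The second call was borderline, held in 9 of 25 settings and was lost in turn without 12 of the 14 libraries, at adjusted p-values of 0.0504 to 0.108. Dclk1 was higher in SH vs. control by 0.18 (adjusted p = 0.0425, edgeR), a call that held in 11 of 25 settings and was lost in turn without 9 of the 14 libraries, each control library among them (up to 0.107). With the trends removed it gave 0.039 (adjusted p = 0.753). The other 13 did not pass in any comparison.

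**Figure D4:**
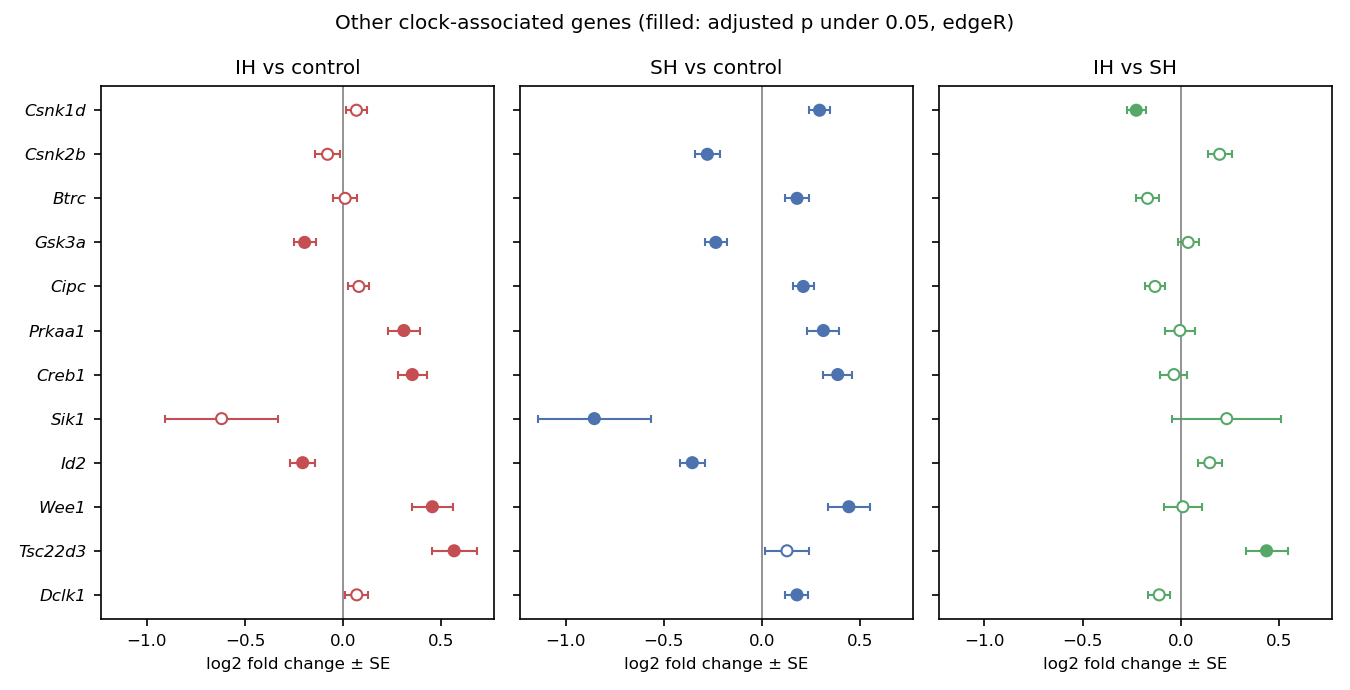
Log2 fold change ± SE (horizontal axes) of the clock regulators and output genes called in any comparison, with filled points for an adjusted p under 0.05 (edgeR). Csnk1d lies to the right in SH vs. control and to the left in IH vs. SH, and Tsc22d3 lies to the right in IH vs. control and IH vs. SH.

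Lists of genes that respond to handling, stress hormones and oxygen are given beside the clock genes. The lists share members: Dusp1 is on the immediate early and glucocorticoid lists, Tsc22d3 on the output and glucocorticoid lists, and Sik1 on the regulator and immediate early lists. Of 21 immediate early genes tested, 11 were lower and 1 higher in IH vs. control (median log2 fold change -0.62; all genes tested 4.85% and 6.08%), 12 lower and 1 higher in SH vs. control (median -0.59; all genes 10.5% and 10.2%) and 0 in IH vs. SH (median 0.00023), where edgeR and DESeq2 each gave 1 at an unadjusted p under 0.05 and 0 after adjustment. Btg2, Jund and Junb led, with log2 fold changes of -1.04, -0.59 and -1.08 in IH vs. control. With GC content and length trends removed, the immediate early genes called went from 12 to 8 in IH vs. control and from 13 to 7 in SH vs. control, while those over all genes tested went from 10.9% to 4.74% and from 20.6% to 5.45%. Jund then gave -0.26 (adjusted p = 0.0101, edgeR) and -0.12 (0.170) in these comparisons. The same shares, with 1.47% higher and 0.899% lower in IH vs. SH, are the background of the next counts. Of 20 glucocorticoid-induced genes, 5 were higher and 1 lower in IH vs. control (median 0.25), 5 and 2 in SH vs. control (0.14) and 2 and 0 in IH vs. SH (0.030). Those leading were Dusp1 (-0.93 in IH vs. control), Gjb6 (0.47) and Plin4 (1.61). Of 13 targets of the hypoxia-inducible factors, 3 were higher and 0 lower in IH vs. control (median 0.23), 4 and 0 in SH vs. control (0.11) and 1 and 0 in IH vs. SH (-0.050). Vegfa, the vascular growth factor, was that gene, at 0.50 on the log2 scale (adjusted p = 0.00154, edgeR), and Pfkfb3 and Hk2 gave 0.44 and 0.40 in IH vs. control, of which Hk2 did not pass (0.0825). With the trends removed, 4 glucocorticoid-induced genes were called in each comparison with the control group and 1 in IH vs. SH, and of the 4 targets called in SH vs. control 1 still passed. The part of these responses in the clock gene values was not tested.

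Markers of other cell types were read in the same fit. None of the 14 choroid plexus, 11 thalamus and striatum, 8 CA1 and CA3, 5 oligodendrocyte or 1 astrocyte markers tested passed in edgeR in any comparison. At an unadjusted p under 0.05 in edgeR, IH vs. control held 0, 2, 3, 1 and 0 of them in that order. SH vs. control held 0, 1, 2, 1 and 0. The share of all genes at that limit was not taken, so these counts have no background. DESeq2 called 2 and 1 of the CA1 and CA3 markers in these comparisons, beside 15.9% (IH) and 24.7% (SH) of genes. Of 7 dentate gyrus markers, 1 was higher in the IH group and 2 in the SH group than in the control group, with medians of 0.51 and 0.53. Of 5 endothelial markers 1 was higher in each, of 4 microglial markers 2 were lower in SH vs. control, and of 4 erythrocyte genes 4 were lower in IH vs. control (median -0.69). Over all genes tested, 6.08% were higher and 4.85% lower in IH vs. control and 10.2% and 10.5% in SH vs. control. After removal of the trends, the dentate gyrus count was 0 in IH vs. control and 1 in SH vs. control, the endothelial 1 and 0, the microglial count in SH vs. control 0 and the erythrocyte count in IH vs. control 2. Over all genes tested, 4.74% were called in IH vs. control and 5.45% in SH vs. control after this step. The part of these markers in the clock gene values was not tested.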

How the data were processed

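Paired-end poly(A) RNA-seq libraries of 14 hippocampal samples were used. Reads were trimmed by the authors with fastp 0.23.4 and they aligned them to GRCm39 with HISAT2 2.2.1 and quantified them with StringTie 2.2.1. The table they deposited holds estimated counts per gene, not normalized between samples, for protein-coding genes selected by a count limit of 40 and a signal against the control group. Adjusted p-values and shares of called genes hold only within that selection. For 10 genes some values had decimals, which were rounded here.

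edgeR 4.0.16 (R 4.3.3) was used for quasi-likelihood tests after TMM scaling. All 3 groups entered the same model, limited to the 7338 genes whose mean count reached 40 in each group, with Benjamini-Hochberg adjustment over these genes. The SE was taken as |log2 fold change| over the root of F. On simulated data for IH vs. control with 7338 genes, 55% of changes of 0.5 and 89% of changes of 1 on the log2 scale were recovered, with 7 false calls. Alternatives were DESeq2 1.42.0, scaling by library total, the 80th percentile or DESeq2 size factors, no filter, filterByExpr, only the compared groups, a replicate block, removal of GC content and length trends (loess span 0.5), the choroid plexus marker level as a covariate, and leaving out each library. Correlations used log2 CPM (prior count 2) and 100000 permutations within groups. GC content, length and coordinates came from GENCODE vM39 for 7720 genes matched by symbol.

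Named genes are the members present, the clock regulators and outputs called in any comparison, up to 3 members of each other list by smallest adjusted p, and the 5 genes most like Dbp. The members, lists and marker genes were chosen with earlier results of these data known. Of the genes so chosen, 1 clock gene and 1 clock regulator are not reported here. Pairs of libraries within a group differed by more than counting noise (lowest chi-square per degree of freedom 8.96 over 26 pairs). The totals limit the precision of genes with low counts. Replicates were taken as samples of separate mice, which the methods do not state outright.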

Additional observations from a re-analysis of the deposited data

Results flagged for a closer look

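Per3 was singled out because the effects of the hypoxia schedules on it differed. The difference, which is the IH vs. SH value itself, was 0.36 on the log2 scale (adjusted p = 0.0272, edgeR, fit of all 14 libraries), with 5 of 5 IH libraries above all SH libraries. In a fit of the 10 IH and SH libraries alone the value was 0.36 and the adjusted p 0.0723, so the call was lost. Among 39 sets of a member in a group of 4 or 5 libraries, 0 held a library far enough from the others to be singled out by Dixon's criterion.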

How the results depend on the processing

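With GC content and length trends removed, 348 genes were called in IH vs. control (3 clock genes) and 400 in SH vs. control (0 clock genes), and with a replicate block added 301 (1) and 362 (0). DESeq2 called 300 genes in IH vs. SH, and a fit of the compared groups alone called 64 there (0 clock genes). With the choroid plexus covariate 2 clock genes were called in SH vs. control. The cause of these shifts was not tested. Leaving out 1 library at a time gave 389 to 976 genes and 4 to 6 clock genes in IH vs. control, 908 to 1742 and 1 to 6 in SH vs. control, and 88 to 179 and 0 to 1 in IH vs. SH. IH vs. control fell to 409, 389 and 523 genes without control replicates 1, 2 and 4, and SH vs. control to 908 and 984 without control replicates 1 and 2. The correlation with Dbp passed for 0 to 1 genes (Rorb, without SH replicate 1 or 5).

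Deviations of same-numbered samples correlated at -0.296 to 0.466, 6 of 13 above 0.1. Samples with different numbers were not compared, so whether same-numbered samples pair was not tested. A replicate block alone called 738, 1443 and 148 genes, with 6, 3 and 1 clock genes, and among members it changed only the call of Per3 in SH vs. control (0.20, adjusted p = 0.0779).

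Log2 fold changes that turned sign belonged to members that did not pass, and the cause was not tested. With GC content and length trends removed, Clock, Rora and Rorb became -0.018, -0.17 and -0.11 in IH vs. control. Nr1d1, Nr1d2, Rora and Rorb in SH vs. control became 0.089, -0.010, -0.13 and -0.14, and in IH vs. SH Rorb and Dbp became 0.030 and -0.021. With the block added, Clock, Rora and Rorb were -0.024, -0.14 and -0.12 in IH vs. control. Then Clock, Nr1d1, Nr1d2, Rora and Rorb in SH vs. control were -0.0016, 0.073, -0.0029, -0.11 and -0.15, and in IH vs. SH Rorb and Dbp were 0.027 and -0.023. Scaling by the 80th percentile gave Rorb 0.00031 in IH vs. SH. Leaving out 1 library moved Rora from -0.084 to 0.17 in IH vs. control. For SH vs. control, Npas2 ran from -0.18 to 0.071, Nr1d1 from -0.088 to 0.0091 and Rora from -0.017 to 0.24. In IH vs. SH Rora ran from -0.11 to 0.012 and Rorb from -0.071 to 0.047.

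Correlations with Dbp turned sign with the trends removed for Clock, Per1, Per3, Nr1d2 and Hlf (r of 0.269, 0.0344, 0.151, 0.218 and 0.196). Leaving out 1 library moved r from -0.227 to 0.156 for Per1, -0.270 to 0.127 for Per3, -0.311 to 0.456 for Ciart, -0.284 to 0.437 for Nr1d1 and -0.260 to 0.116 for Hlf. With 4 or 5 libraries a group, log2 differences of about the SE of 0.10 could not be told from 0.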
